A study of Mus musculus with 4 samples.

Results

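The phosphatidylinositol 3-kinase-related kinases (PIKKs) are a family of very large proteins, and 10 genes of the family and its checkpoint partners are described here in hematopoietic stem cells (HSCs) with and without *Id2*. The 10 genes were taken by symbol from a matrix of 19354 genes, in which each has 1 row. They are the kinase genes *Atm*, *Atr*, *Prkdc*, *Mtor*, *Smg1* and *Trrap* and the partner genes *Atrip*, *Topbp1*, *Chek1* and *Chek2*. All 10 passed the filter of a mean CPM (reads of a gene scaled to the size of its library) of 1 or more, which 15895 genes passed. The rule takes genes by symbol and uses no values, but the genes were chosen with earlier results of these data known. The study itself also names *Atm* and *Atr*, so their difference is not independent evidence. The study's data statement cites another record than the matrix used here, and whether the libraries are the same was not checked.

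HSCs were sorted from bone marrow of *Mx1-Cre* mice that were either Id2+/+ or carried loxP-flanked *Id2* alleles (Id2Fl/Fl), and mice of both genotypes were 8 to 16 weeks old and had received pIpC 2 weeks before. *Mx1-Cre* is switched on by the interferon response to pIpC, so the controls (Id2+/+) carry the Cre and went through the same response, and deletion (Id2Δ/Δ) is not restricted to HSCs. The sort gate was LSK (Lin-, Sca-1+, c-Kit+) FLT3- CD48- CD150+. Cells of 14 Id2+/+ and 15 Id2Fl/Fl mice were pooled over 2 experiments, and 2 RNA libraries represent each genotype. The labels do not say whether the 2 libraries of a genotype hold separate mice, so p-values measure the spread between libraries, which may be technical.

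PIKKs share a kinase domain related to that of lipid kinases, near the C-terminal end of a long scaffold of helical repeats. ATM responds to DNA breaks and ATR, held by its partner ATRIP, to single-stranded DNA at stalled replication forks, and both phosphorylate the checkpoint kinases CHK2 and CHK1. The DNA-PK catalytic subunit, encoded by *Prkdc*, acts in joining broken ends, mTOR controls growth and translation, SMG1 acts in nonsense-mediated mRNA decay, and TRRAP is a kinase-dead scaffold of histone acetyltransferase complexes. In hematopoietic stem cells, ATM is known for limiting oxidative stress and preserving self-renewal.

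The genes lie on 5 chromosomes in the GENCODE M21 annotation of GRCm38. *Atm* (ENSMUSG00000034218.15) is at chr9:53439149-53536740 on the minus strand and *Atr* (ENSMUSG00000032409.15) at chr9:95857597-95951781 on the plus strand. *Prkdc* is at chr16:15637866-15842235, *Mtor* at chr4:148448611-148557683, *Smg1* at chr7:118131308-118243670 and *Trrap* at chr5:144767732-144859778. The longest transcripts of *Atm* and *Atr* have 9819 and 8102 bases in 62 and 47 exons. Those of the long kinases whose main role is not in DNA damage are of the same order or longer. They have 8564 bases for *Mtor*, 12479 for *Trrap* and 15557 for *Smg1*, and *Prkdc* has 12647. The partners are shorter, at 4248 bases for *Atrip*, 5224 for *Topbp1*, 3797 for *Chek1* and 2276 for *Chek2*.

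The sequence just upstream of the start sites is shown for *Atm* and *Atr*, the genes with the largest differences here, and for *Mtor*, a kinase gene of like length with a small one. The windows are 250 bases before the RefSeq start site on GRCm38.p6 and are given for *Atr* and *Mtor* in full, at chr9:95857347-95857596 and chr4:148448332-148448581 on the plus strand. For *Atm* the 181 bases at chr9:53536741-53536921 on the minus strand are given, which leaves out annotated exon. Capitals mark ACGTG or GCGTG on either strand, the core letters that HIF-1 binds, a factor that the study examines.
*Atm*: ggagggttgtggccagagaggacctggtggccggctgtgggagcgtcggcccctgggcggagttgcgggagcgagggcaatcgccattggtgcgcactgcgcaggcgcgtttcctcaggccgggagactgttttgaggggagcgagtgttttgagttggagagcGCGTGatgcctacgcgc
*Atr*: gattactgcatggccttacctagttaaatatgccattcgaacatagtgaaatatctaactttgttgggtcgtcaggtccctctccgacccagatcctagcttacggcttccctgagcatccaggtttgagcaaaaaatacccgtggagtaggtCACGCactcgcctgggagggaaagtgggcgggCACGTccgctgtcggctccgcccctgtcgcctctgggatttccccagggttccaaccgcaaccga
*Mtor*: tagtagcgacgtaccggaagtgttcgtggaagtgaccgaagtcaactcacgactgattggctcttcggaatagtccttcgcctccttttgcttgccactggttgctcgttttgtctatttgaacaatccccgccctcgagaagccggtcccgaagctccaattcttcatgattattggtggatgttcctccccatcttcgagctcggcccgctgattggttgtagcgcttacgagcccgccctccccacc
In the 250-base windows, *Atm* held 1 GCGTG, *Atr* held 1 ACGTG and 1 GCGTG, and *Mtor* held neither. *Smg1*, *Trrap* and *Topbp1*, with smaller differences between genotypes, held 1 GCGTG each. *Chek1* held 2 GCGTG and *Atrip* 1 ACGTG and 1 GCGTG, while *Chek2* held neither and *Prkdc* had no window. Among 32817 such windows of mouse genes, 16.6% held ACGTG and 28.1% held GCGTG. The windows of the genes described here held 54.4% (*Mtor*) to 73.2% (*Topbp1*) G and C. The shares over all windows were not matched for this content. The E-box letters CANNTG are bound by E proteins, the partners that ID proteins hold back, and can overlap ACGTG. They were in none of the windows of *Atm*, *Atr*, *Mtor*, *Smg1*, *Topbp1*, *Chek1* and *Chek2*, while *Trrap* held 1 and *Atrip* 3. Of all windows, 66.2% held them. A match describes letters in a window and not binding.

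The libraries were checked against their labels. In the controls, *Id2* had an estimated 93 and 98 reads, and 0 in both Id2Δ/Δ libraries, which by the 3 reads that a count of 0 allows in a library is at least 36.6-fold lower (the lowest Id2+/+ value against the higher Id2Δ/Δ floor, counting error only). The estimated depth was 14200000 to 18800000 reads a library. Of the genes of the sort gate, *Kit* ranged from 10.19 to 11.08 log2 CPM, *Ly6a* (Sca-1) from 6.70 to 7.08 and *Slamf1* (CD150) from 5.70 to 6.08, while *Cd48* ranged from 1.40 to 3.04. *Flt3*, whose protein the gate excludes, was at 5.47 to 5.63. Of other blood cells, the 6 megakaryocyte genes, which HSCs also express, summed to 459 to 598 CPM, the 7 listed erythroid genes to 43.9 to 69.9 CPM and the 7 listed neutrophil genes to 25.7 to 141 CPM, highest in Id2+/+ replicate 1 and lowest in Id2Δ/Δ replicate 2. Of the B-cell markers, *Cd79a*, *Ms4a1*, *Pax5* and *Ebf1* had no row in the matrix, and the 2 listed genes summed to 33.6 to 51.0 CPM, nearly all of it *Cd79b*. Of the T-cell markers, *Cd3d*, *Cd3e*, *Cd3g* and *Cd8a* had no row, and the 2 listed genes summed to 22.7 to 26.2 CPM, nearly all of it *Lck*. The 5 listed macrophage genes summed to 35.8 to 44.2 CPM. *C1qb*, at a mean of 1.09 CPM, was higher in both Id2Δ/Δ libraries (-0.43 and -1.40 log2 CPM in the controls, 1.04 and 0.25 in Id2Δ/Δ). The other tested macrophage genes, *Cd68* and *Csf1r*, had log2 fold changes (Id2Δ/Δ minus Id2+/+) of -0.12 and -0.06 with overlapping genotypes. The part of these markers in the results was not tested.

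All values are normalized log2 CPM as deposited, and differences are Id2Δ/Δ minus Id2+/+, tested with limma across all 15895 genes and given with a standard error (SE). Of the 10 genes, 9 were lower and 1 was higher in Id2Δ/Δ HSCs, against 48.3% lower and 51.7% higher over all tested genes. *Atm* and *Atr* were the largest differences, near a log2 of -0.6, and the other 4 kinase genes were between -0.23 and -0.11. No gene was called at an adjusted p under 0.05 (0 of 15895, 0%), and the smallest adjusted p over all genes was 0.910 (limma, Benjamini-Hochberg). At an unadjusted p under 0.05 there were 2 of the 10 genes, *Atm* and *Atr*, both lower, where 4.67% of all tested genes passed that limit, 2.95% lower and 1.72% higher. In bulk libraries, fewer cells that express a gene and less RNA per cell cannot be told apart.

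**Figure D1:**
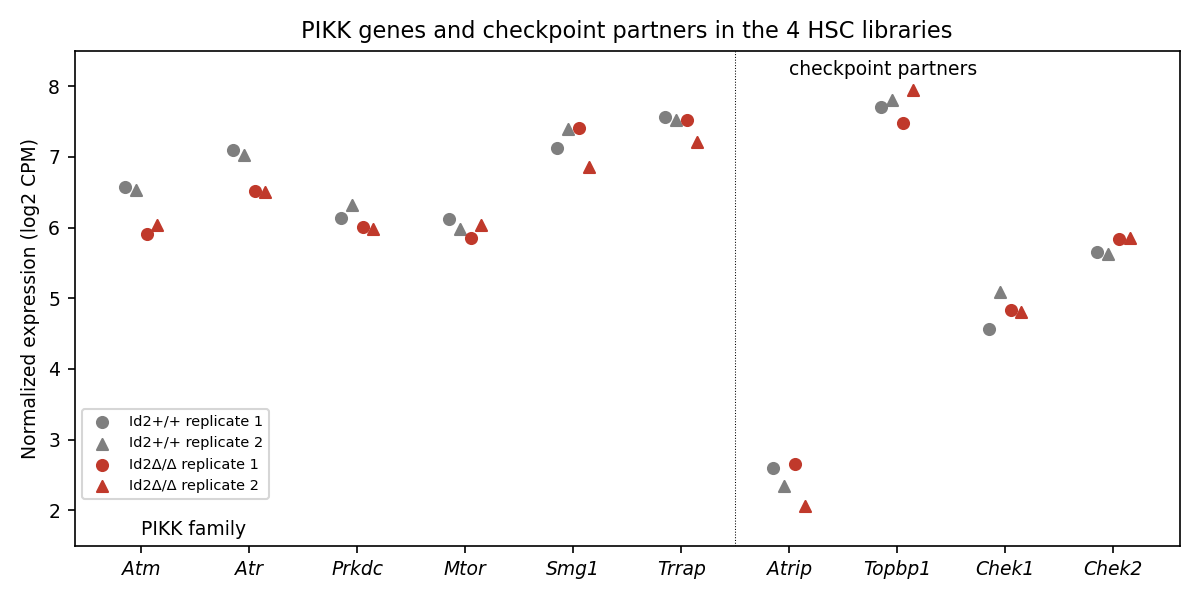
Normalized expression (log2 CPM, vertical axis) of the 6 PIKK genes and 4 checkpoint partner genes in each of the 4 libraries. Grey symbols are Id2+/+ and red symbols Id2Δ/Δ, with circles for replicate 1 and triangles for replicate 2. Both red symbols lie clearly below both grey ones for *Atm* and *Atr*, whereas *Mtor*, *Smg1*, *Atrip*, *Topbp1* and *Chek1* overlap.

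*Atm*, the kinase of DNA breaks, had 6.58 and 6.53 log2 CPM in Id2+/+ replicates 1 and 2 and 5.91 and 6.04 in Id2Δ/Δ replicates 1 and 2. Both Id2Δ/Δ libraries were below both Id2+/+ libraries, and the distance between the genotypes was larger than that between replicates. The Id2+/+ mean was 6.55 ± 0.03 (SD, n = 2) and the Id2Δ/Δ mean 5.97 ± 0.09 (SD, n = 2), a log2 fold change of -0.58 (SE 0.14) or 33.2% less. Its unadjusted p was 0.00332 and its adjusted p 0.910 (limma). The 95% interval of the difference was -0.90 to -0.26. *Atm* was covered by an estimated 1066 to 1449 reads a library, so counting error was at most 3.06% of a value.

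*Atr*, the kinase of replication stress, had 7.10 and 7.02 log2 CPM in the controls and 6.52 and 6.50 in the Id2Δ/Δ libraries. As for *Atm*, the genotypes did not overlap and the replicates were close to each other. The means were 7.06 ± 0.06 (SD, n = 2) and 6.51 ± 0.02 (SD, n = 2), and the log2 fold change was -0.55 (SE 0.12), or 31.9% less, with a 95% interval of -0.84 to -0.27. The unadjusted p was 0.00247 and the adjusted p 0.910 (limma). Leaving out each library in turn gave -0.65 to -0.52 for *Atm* and -0.60 to -0.51 for *Atr*. *Atr* ranked 16 and *Atm* 22 by unadjusted p among 15895 genes, while by the size of the difference 7.84% of all tested genes were at or below the value of *Atr*.

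Exons of *Atr* are overlapped on the opposite strand by *1700065D16Rik* over 726 bases and by *Gm16794* over 462 bases, and the sources used here do not say whether reads were counted by strand. *Gm16794* had 4.54 and 4.57 log2 CPM in the controls and 3.70 and 4.41 in the Id2Δ/Δ libraries. *1700065D16Rik* had 1.33 and 1.98 in the Id2+/+ and -0.43 and 0.73 in the Id2Δ/Δ libraries. Both noncoding genes were thus lower in both Id2Δ/Δ libraries, at log2 fold changes of -0.50 (SE 0.27) and -1.51 (SE 0.65), and how many reads they share with *Atr* was not tested. No other listed gene overlapped an exon of the 10 genes.

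*Prkdc*, which encodes the catalytic subunit of DNA-PK, was the damage kinase with the smallest difference. It had 6.13 and 6.32 log2 CPM in the Id2+/+ and 6.0 and 5.99 in the Id2Δ/Δ libraries. The genotypes did not overlap, but the nearest libraries of different genotype were closer together than the Id2+/+ replicates were to each other. The log2 fold change was -0.23 (SE 0.14, unadjusted p = 0.153, limma) with a 95% interval of -0.57 to 0.11.

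The long kinase genes whose main role is not in DNA damage gave the comparison for *Atm* and *Atr*. *Mtor*, the kinase of growth control, had 6.12 and 5.98 log2 CPM in the Id2+/+ and 5.85 and 6.03 in the Id2Δ/Δ libraries. *Smg1*, of nonsense-mediated decay, had 7.13 and 7.39 in the Id2+/+ and 7.40 and 6.86 in the Id2Δ/Δ libraries. For *Mtor* and *Smg1* the genotypes overlapped, and the Id2Δ/Δ replicates of *Smg1* were 1 above and 1 below the controls.
*Trrap*, the scaffold of acetyltransferase complexes, had 7.56 and 7.52 log2 CPM in the Id2+/+ and 7.52 and 7.20 in the Id2Δ/Δ libraries. Its genotypes did not overlap, though Id2Δ/Δ replicate 1 lay almost on the controls and the difference came from Id2Δ/Δ replicate 2. The log2 fold changes were -0.11 (SE 0.15) for *Mtor*, -0.13 (SE 0.19) for *Smg1* and -0.18 (SE 0.14) for *Trrap*, with unadjusted p-values of 0.495, 0.538 and 0.238 (limma). Their 95% intervals ran from -0.46 to 0.25, -0.58 to 0.33 and -0.50 to 0.15, so a difference of the size seen for *Atr* lies inside the interval for *Smg1* and outside those for *Mtor* and *Trrap*. Without Id2Δ/Δ replicate 1, *Trrap* was at -0.33 and *Smg1* at -0.40, and without Id2Δ/Δ replicate 2 they were at -0.02 and 0.15.

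Within each library, the mean of *Atm* and *Atr* was set against the mean of *Mtor*, *Smg1* and *Trrap*. This difference in level was -0.10 and -0.19 on the log2 scale in Id2+/+ replicates 1 and 2 and -0.71 and -0.43 in Id2Δ/Δ replicates 1 and 2. *Atm* and *Atr* were thus lower relative to the other 3 kinase genes in both Id2Δ/Δ libraries than in either Id2+/+ library. The genotypes differed by -0.43, and by -0.57 to -0.29 with single libraries left out.
Each of *Atm* and *Atr* was also compared with each of the other 3, in 6 pairs. *Atm* minus *Mtor* was 0.46 and 0.56 in the Id2+/+ and 0.06 and 0.00497 in the Id2Δ/Δ libraries, and *Atr* minus *Mtor* was 0.98 and 1.04 against 0.67 and 0.46. *Atm* minus *Trrap* was -0.98 and -0.99 in the Id2+/+ and -1.61 and -1.17 in the Id2Δ/Δ libraries, and *Atr* minus *Trrap* was -0.46 and -0.50 against -1.0 and -0.71. In these 4 pairs the Id2Δ/Δ values lay below the Id2+/+ values. In the pairs with *Smg1* the genotypes overlapped, since *Smg1* was itself low in Id2Δ/Δ replicate 2, with *Atm* minus *Smg1* at -0.55 and -0.86 against -1.50 and -0.82 and *Atr* minus *Smg1* at -0.03 and -0.37 in the Id2+/+ and -0.89 and -0.36 in the Id2Δ/Δ libraries. The exact two-sided permutation p was 0.333 for the 4 pairs, the smallest that 2 libraries against 2 allow, and 0.667 for the pairs with *Smg1*. Adjusted over the 6 pairs by the Benjamini-Hochberg method these exact p-values became 0.5 and 0.667, and with 2 libraries a genotype this test could not pass 0.05 at any size of difference.

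**Figure D2:**
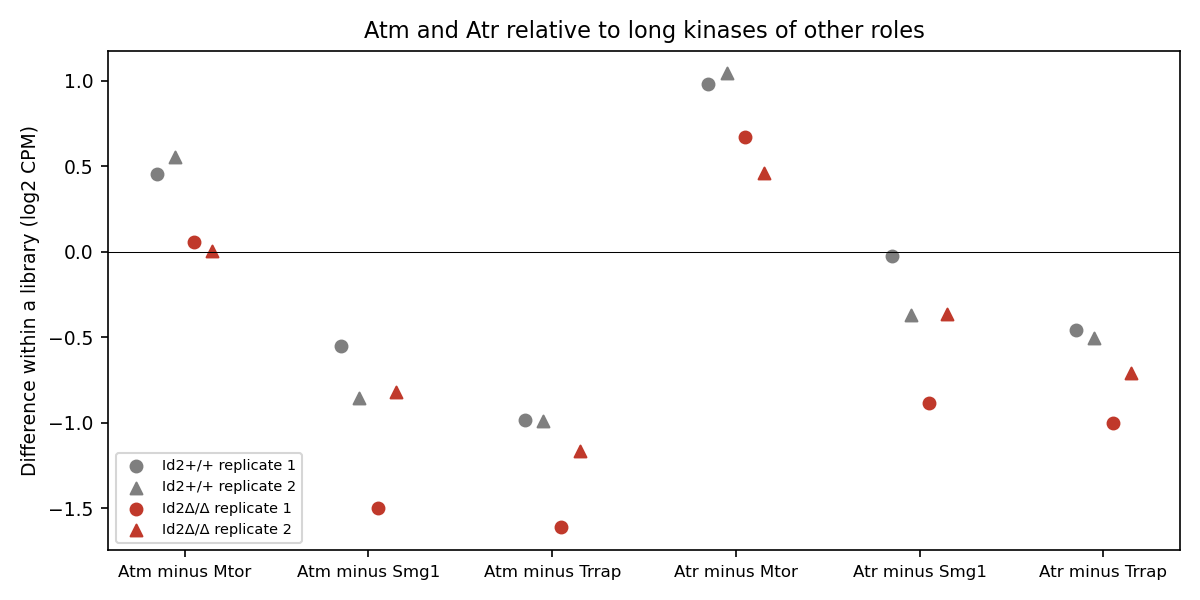
Difference between 2 kinase genes within a library (log2 CPM, vertical axis) for *Atm* and *Atr* against *Mtor*, *Smg1* and *Trrap*, with 1 symbol per library (grey Id2+/+, red Id2Δ/Δ, circles replicate 1, triangles replicate 2). Red symbols are below grey ones in the pairs with *Mtor* and *Trrap*, and reach up to the grey ones in the pairs with *Smg1*.

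Transcript length went with the difference between genotypes over all genes, and the values of the kinase genes were therefore read beside those of all genes of like length. In the class of 8000 bases or more, to which all 6 kinase genes belong, 531 of 711 tested genes (74.7%) were lower, with a median log2 fold change of -0.16. The medians of the shorter classes, whose lower bounds were 4000, 2000, 1000 and 0 bases, were -0.05, 0.02, 0.08 and 0.13. *Mtor*, *Smg1*, *Trrap* and *Prkdc*, between -0.11 and -0.23, were close to the median of their class. *Atm* and *Atr* were further out, and 65 of the 711 genes (9.14%) were as low as *Atr* or lower. *Chek2*, with a transcript of 2276 bases, was above the median of its own class.

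**Figure D3:**
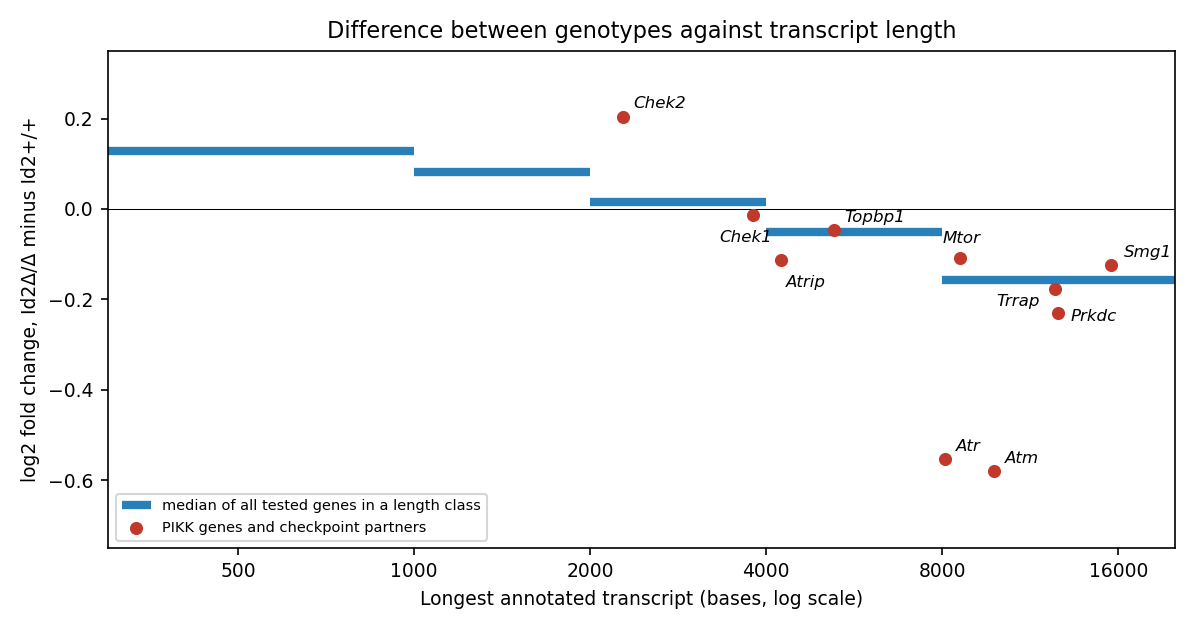
log2 fold change (Id2Δ/Δ minus Id2+/+, vertical axis) against the length of the longest annotated transcript (bases, log axis). Red points are the 10 genes and blue bars the median of all tested genes in 5 length classes, which step down from 0.13 to -0.16, with *Atm* and *Atr* well below the bar of their class and *Mtor*, *Smg1* and *Trrap* beside it.

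After each library was corrected for the trend with transcript length, the log2 fold changes were -0.43 for *Atm* (unadjusted p = 0.0151, limma) and -0.43 for *Atr* (unadjusted p = 0.00936, limma). Those of *Prkdc*, *Mtor*, *Smg1* and *Trrap* were then -0.05, 0.02, 0.09 and 0.01. The genotypes of *Prkdc* and *Trrap* overlapped after the correction, and of the 10 genes only *Atm*, *Atr* and *Chek2* did not, where 34.1% of all tested genes did not overlap after the correction. The transcripts of *Atm* and *Atr* are also poorer in G and C (42.6% and 40.8%) than those of *Mtor* and *Trrap* (54.2% and 53.6%), while *Smg1* and *Prkdc* are at 44.9% and 43.3%. With GC content corrected as well, *Atm* and *Atr* were at -0.41 and -0.38 and *Mtor* and *Trrap* at -0.02 and -0.04.

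The overlap of the genotypes was counted as well. Over the 10 genes as deposited, 5 had no overlap between the genotypes, where all tested genes gave 34.8%. Of these, 4 had both Id2Δ/Δ values below both Id2+/+ values, all of them kinase genes, namely *Atm*, *Atr*, *Prkdc* and *Trrap*. All tested genes gave 15.8% in that direction, and genes of 8000 bases or more gave 39.2%. For 1 gene, *Chek2*, both Id2Δ/Δ values lay above, where all tested genes gave 19.0%.

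**Figure D4:**
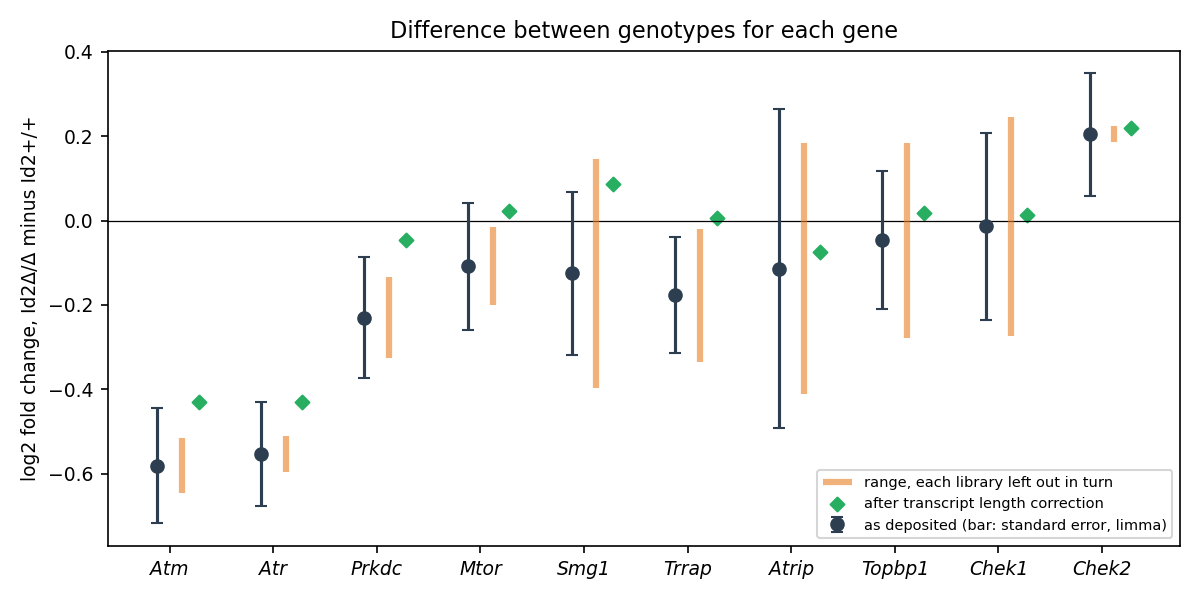
log2 fold change (Id2Δ/Δ minus Id2+/+, vertical axis) of the 10 genes. Dark points with bars are the values as deposited with the limma standard error, orange bars the range with single libraries left out, and green diamonds the values after the correction for transcript length, which stay near -0.43 for *Atm* and *Atr* and lie between -0.05 and 0.09 for the other kinase genes.

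The log2 fold changes of the checkpoint partners were smaller in size than those of *Atm* and *Atr*, but their intervals are wide. That of *Atrip* holds the difference of *Atr*, and that of *Chek1* ends near it, at -0.53. *Atrip*, the obligate partner that carries ATR to coated single-stranded DNA, was the least abundant of the 10 genes, with 87 and 81 reads in the controls and 112 and 72 in the Id2Δ/Δ libraries. In normalized values these are 2.59 and 2.34 log2 CPM against 2.65 and 2.05, so the genotypes overlapped and the Id2Δ/Δ replicates held both the highest and the lowest value. The log2 fold change was -0.11 (SE 0.38, 95% interval -1.0 to 0.77), and a difference of the size seen for *Atr* was not detectable at this depth and spread. *Trex1*, which shares 1147 exon bases with *Atrip* on the same strand, had no row in the matrix, so reads of the shared part cannot be assigned.
*Topbp1*, which encodes the activator of ATR at the fork, was the most abundant of the 10 genes per length. It had 7.71 and 7.81 log2 CPM in the Id2+/+ and 7.48 and 7.94 in the Id2Δ/Δ libraries, with the Id2Δ/Δ replicates on either side of the controls. The log2 fold change was -0.05 (SE 0.16, 95% interval -0.43 to 0.34).
*Chek1*, the effector kinase of ATR, had 4.57 and 5.09 log2 CPM in the Id2+/+ and 4.83 and 4.80 in the Id2Δ/Δ libraries. Here the controls lay on either side of the Id2Δ/Δ libraries, and the log2 fold change was -0.01 (SE 0.22, 95% interval -0.53 to 0.51). *Chek2*, the effector kinase of ATM, had 5.66 and 5.62 in the Id2+/+ and 5.84 and 5.85 in the Id2Δ/Δ libraries. Both Id2Δ/Δ libraries were higher and all replicates were close together, with a log2 fold change of 0.20 (SE 0.15, 95% interval -0.14 to 0.54, unadjusted p = 0.2, limma). Leaving out each library in turn gave 0.19 to 0.22 for *Chek2*.

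Levels were compared between genes per kilobase of the longest transcript, on the log2 scale, with the reservation that the isoforms in use are not known. In Id2+/+ HSCs the order was *Topbp1* at 5.37, *Chek2* at 4.45, *Atr* at 4.04, *Trrap* at 3.90, *Smg1* at 3.30, *Atm* at 3.26, *Mtor* at 2.95, *Chek1* at 2.90, *Prkdc* at 2.56 and *Atrip* at 0.38. *Smg1* and *Atm*, *Mtor* and *Chek1*, and *Chek1* and *Prkdc* differed by less than the larger replicate SD of the pair. In Id2Δ/Δ HSCs *Atr* was at 3.49, below *Trrap* at 3.72, and *Atm* was at 2.68, below *Mtor* at 2.84. *Atm* was there also below *Chek1* at 2.89. The order of *Atr* and *Trrap* and that of *Atm* and *Mtor* thus differed between the genotypes, with gaps in Id2Δ/Δ HSCs of 1.04 and 1.26 times the larger replicate SD of the pair, and in Id2+/+ HSCs *Atr* was above *Trrap* by 2.46 times that SD.

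The genes around each kinase were read from lists written for these pathways. None of the 8 lists had a gene with an adjusted p under 0.05, and the counts of unadjusted p-values are set against 2.95% lower and 1.72% higher over all tested genes, whose median log2 fold change was 0.01.
The 7 genes for the chaperones that fold PIKKs (the TTT and R2TP complexes) had a median of 0.07 (0.02 to 0.13 with single libraries left out), with 5 higher and 0 at an unadjusted p under 0.05. *Tti1*, which brings new PIKKs to HSP90, had a log2 fold change of 0.19 (SE 0.16), and the ATPase gene *Ruvbl2* 0.12 (SE 0.12). Both had higher values in both Id2Δ/Δ libraries, *Tti1* by a narrow margin (5.98 in Id2Δ/Δ replicate 2, 5.96 in Id2+/+ replicate 2). Of the 7 genes, 3 had both Id2Δ/Δ values above both controls, where all tested genes gave 19.0%. *Ruvbl1* was at -0.03 (SE 0.13).
Of 12 genes for sensors and mediators of ATM, 7 were higher and 5 lower, with a median of 0.04. *Kat5*, the TIP60 acetyltransferase known to activate ATM, had 5.82 and 5.70 log2 CPM in the Id2+/+ and 6.24 and 6.04 in the Id2Δ/Δ libraries, a log2 fold change of 0.37 (SE 0.15, unadjusted p = 0.0417, limma), and was the only gene of the list at that limit. *Rif1*, a mediator downstream of ATM and the most abundant gene of the list, was at -0.13 (SE 0.13).
Of 12 genes that load ATR or protect the fork, 9 were higher, with a median of 0.15 (0.06 without Id2+/+ replicate 1). *Rpa3*, the small subunit of the protein that coats single-stranded DNA, had 4.95 and 4.83 log2 CPM in the Id2+/+ and 5.57 and 5.25 in the Id2Δ/Δ libraries. Its log2 fold change was 0.52 (SE 0.19, unadjusted p = 0.0265, limma), whereas *Rpa1*, the large subunit, was at -0.09 (SE 0.13). The longest transcript of *Rpa3* has 682 bases and that of *Rpa1* 5077, which are in different length classes. After length correction *Rpa3* was at 0.43 and *Rpa1* at -0.02.

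Of 11 checkpoint effectors, 8 were lower, with a median of -0.11 and 0 at an unadjusted p under 0.05. *Mdm4*, an inhibitor of p53, had a log2 fold change of -0.24 (SE 0.11), *Cdc25c*, the phosphatase that starts mitosis and is held back by CHK1 and CHK2, 0.54 (SE 0.28), and *Trp53*, which encodes p53, 0.09 (SE 0.10). The genotypes did not overlap for these 3 of the 11 genes, where 34.8% of all tested genes did not overlap.
Of the 7 genes of DNA-PK and end joining, 6 had a row and were tested, 4 of them lower, with a median of -0.06. *Xrcc4*, a ligase partner, was higher at 0.55 (SE 0.23, unadjusted p = 0.0432, limma). *Dclre1c*, which encodes the nuclease Artemis that DNA-PK activates, was at -0.54 (SE 0.24), and *Xrcc6*, which encodes KU70, at -0.02 (SE 0.12).
Among 15 genes of the mTOR complexes and their regulators, 8 were higher and 7 lower, with a median of 0.01. *Rictor*, the defining subunit of mTORC2, had 6.80 and 6.53 log2 CPM in the Id2+/+ and 6.13 and 6.24 in the Id2Δ/Δ libraries. Both Id2Δ/Δ libraries were lower, with a log2 fold change of -0.48 (SE 0.15, unadjusted p = 0.0135, limma), and its longest transcript has 9312 bases. All tested genes gave 15.8% without overlap in that direction, and genes of 8000 bases or more 39.2%. Length correction put *Rictor* at -0.34. *Tsc2*, an inhibitor of mTORC1, was at 0.08 (SE 0.13), and *Rraga*, a RAG GTPase gene, at 0.33.
The 9 genes of SMG1 and nonsense-mediated decay had a median of -0.12 (-0.01 without Id2Δ/Δ replicate 1, -0.05 without Id2+/+ replicate 1, -0.07 without Id2Δ/Δ replicate 2 and -0.04 after length correction), with 5 lower and 0 at an unadjusted p under 0.05, and *Upf1*, the helicase that SMG1 phosphorylates, was at -0.34 (SE 0.24) with overlapping genotypes, while *Upf3a* was at 0.32. Of 19 genes of the acetyltransferase complexes around TRRAP, 10 were lower, with a median of -0.03. *Supt3*, a SAGA subunit, was at -0.43 (SE 0.17, unadjusted p = 0.0353, limma) and *Tada1*, another, at 0.31 (SE 0.16), while *Brd8* of the TIP60 complex was at 0.04. The median changed sign with a library left out for the lists of ATM sensors, checkpoint effectors, end joining, mTOR and TRRAP complexes.

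**Figure D5:**
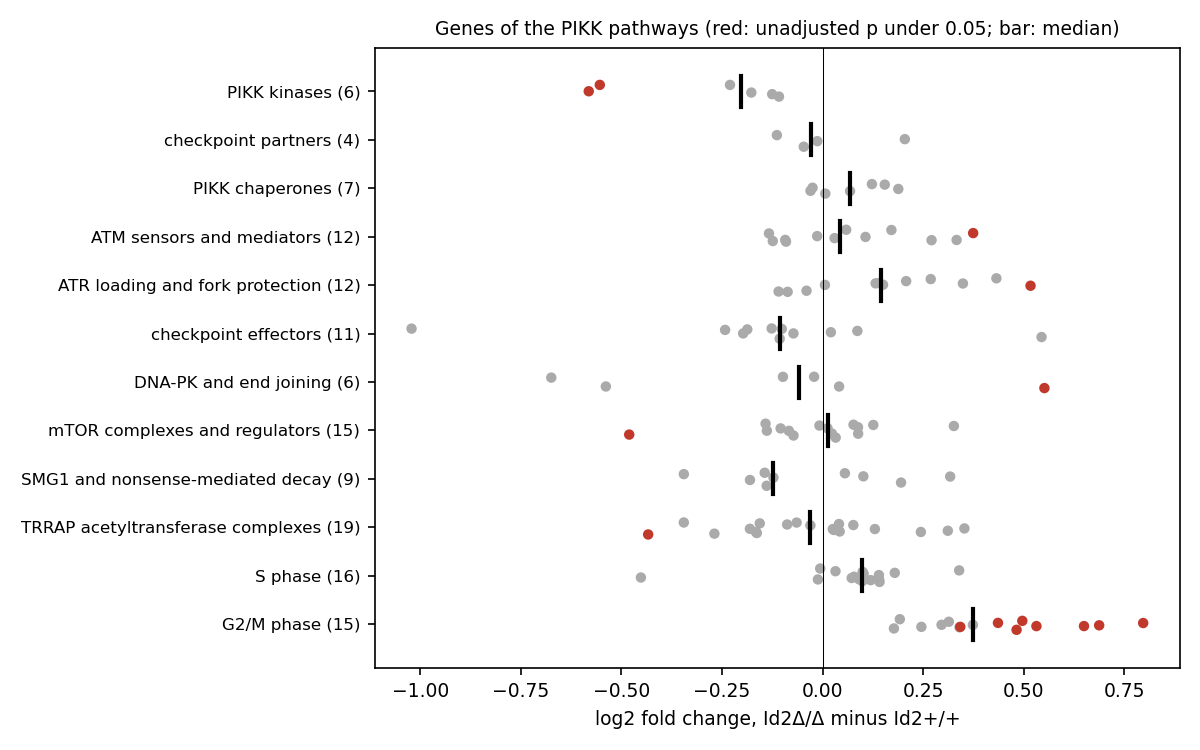
log2 fold change (Id2Δ/Δ minus Id2+/+, horizontal axis) of each tested gene in 12 lists, with the number of genes in brackets. Points are genes (red at an unadjusted p under 0.05, vertical jitter only for legibility) and black bars the list medians, which run from -0.20 for the PIKK genes (-0.02 after length correction) to 0.37 for genes of the G2/M phase.

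Cell-cycle genes and HSC markers were read beside the kinase genes. All 15 genes of a short G2/M list had higher means in the Id2Δ/Δ libraries, against 51.7% of all tested genes (median of the log2 fold changes 0.37). Of the 15, 8 had an unadjusted p under 0.05 (limma), where 1.72% of all tested genes were higher at that limit. *Ccnb1*, the mitotic cyclin B1, was the one with the smallest p (log2 fold change 0.50, SE 0.14), and *Mki67*, the most abundant, was at 0.18. Their summed level was 1103 and 1228 CPM in the Id2+/+ and 1535 and 1418 CPM in the Id2Δ/Δ libraries. Of 16 S-phase genes, 13 were higher, with a median of 0.10 (0.00406 without Id2+/+ replicate 1 and 0.06 without Id2Δ/Δ replicate 2) and 0 at an unadjusted p under 0.05. The histone mRNA factor *Slbp* was at 0.18, the uracil glycosylase gene *Ung* at -0.45 and the helicase gene *Mcm6* at -0.01. *Chek1* and *Topbp1*, which are known to be expressed in cycling cells, were at log2 fold changes of -0.01 and -0.05. The interval of *Chek1* (-0.53 to 0.51) holds both the G2/M median of 0.37 and the S-phase median of 0.10. Whether *Chek1* departs from either list therefore cannot be read from its values. The interval of *Topbp1* (-0.43 to 0.34) holds the S-phase median and ends just below the G2/M median. Of single HSC markers, *Kit* had 11.08 and 10.93 log2 CPM in the controls and 10.19 and 10.55 in the Id2Δ/Δ libraries, and *Fgd5* and *Hlf* were at log2 fold changes of -0.57 and -0.30. *Slamf1* of the sort gate was at 0.26 (5.78 and 5.70 against 6.08 and 5.92), *Hoxb5* at 0.25 and *Ly6a* at 0.14. The part of the cell-cycle genes and the HSC markers in the difference of *Atm* and *Atr* was not tested.

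The genes whose 4 centred values were nearest to the mean of *Atm* and *Atr* were *Wwtr1*, *1700102P08Rik*, *Gvin1*, *Aph1b* and *Arhgef10*, at Euclidean distances of 0.05 to 0.08 on the log2 scale over 4 libraries. In that order, the unadjusted p-values of these genes were 0.116, 0.412, 0.0448, 0.0516 and 0.0160 (limma). *1700102P08Rik* was low, at 0.65 and 0.52 log2 CPM in the Id2+/+ and -0.03 and 0.04 in the Id2Δ/Δ libraries. *Atm* and *Atr* each lay at 0.06 from their own mean, an equal distance because they set that mean. The next nearest of the 10 genes was *Prkdc* at 0.39, followed by *Trrap* and *Mtor*, each at 0.47. *Chek2* was the farthest, at 0.77.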

How the data were processed

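HSC libraries, 2 of each genotype, were compared. The authors deposited log2 CPM values for 19354 genes, 1 column for each library. The submitters' processing notes name CASAVA 1.8.4, Trimmomatic 0.30, TopHat2 2.0.8, RSEM, STAR and the builds mm9 and NCBIM37, with no role or order. The normalization is not given in the sources used here: in 88.4% of ranks the sorted columns differed by less than 0.1, as quantile normalization leaves them. Strand use and the handling of reads shared between near-identical genes are also not given.

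Below 32 CPM, the rank of a distinct value in its library was taken as its number of reads, and depth was estimated from these. Reads of genes above 32 CPM are that depth times the CPM. Depth sets a counting error of at most 3.06% for *Atm* and 11.8% for *Atrip*.

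The 15895 genes whose mean CPM was 1 or more were tested on the deposited scale, without a pseudocount, with limma 3.58.1 (lmFit, eBayes with trend, genotype as the only term) in R 4.3.3, two-sided with Benjamini-Hochberg adjustment. The fit was tested on simulated data. Kinase pairs were compared by exact permutation with scipy 1.17.1. Length correction took off a natural spline (5 degrees of freedom) of the log of transcript length from each library. Genes were annotated from GENCODE M21 (GRCm38), which holds 99.7% of the listed identifiers, 82.0% under an identical version number. It is not the build that the notes name, so coordinates describe the genes and not the alignment. Start sites of 9 of the 10 genes were in RefSeq (*Prkdc* was not). No protein sequences were used.

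The genes, lists and tests were chosen with earlier results of these data known. Text names the 10 genes, *Id2*, the markers of the sort gate, and the genes nearest to *Atm* and *Atr*. Of each pathway or cell-cycle list it names the gene with the smallest p in each direction and the most abundant one. Genes that overlap exons of the 10 and markers without a row are named too. The markers *Fgd5*, *Hlf*, *Hoxb5*, *C1qb*, *Cd68*, *Csf1r*, *Cd79b* and *Lck* were named outside this rule. Alternatives are in the closing section.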

Additional observations from a re-analysis of the deposited data

How the results depend on the processing

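No gene was called at an adjusted p under 0.05 with a pseudocount of 1 or 5 CPM, other scalings, filters or trends, length or length and GC corrections, a limit of 0.1 on the adjusted p or any library left out. At an unadjusted p under 0.05 there were 742. The labels do not say that a replicate number marks an experiment, and libraries of the same number deviated from their group means with a correlation of 0.0592 over the tested genes, or 0.144 over those with a mean of 32 CPM or more. A fit with a replicate block called 1 gene (*C130089K02Rik*, named after its value was seen), and 1 was called under length correction with the block. With this balanced design the block leaves every log2 fold change as it was, so signs could not turn. None of the 10 genes changed sides of an unadjusted p of 0.05 (limma) with the block.

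*Atm* and *Atr* kept an unadjusted p under 0.05 and their sign in all 16 alternatives, with log2 fold changes of -0.65 to -0.41 and -0.60 to -0.38. *Prkdc* and *Chek2* kept their signs too. Alternatives that changed only the filter, the trend or the block left the log2 fold changes as they were, so there only p-values could move. The count of the 10 genes at that limit was 2 to 4 when a library was left out. *Smg1* and *Trrap* were added without Id2Δ/Δ replicate 1, where 7.81% of all tested genes passed it, and *Topbp1* without Id2Δ/Δ replicate 2, where 15.8% did. Without Id2+/+ replicate 1 or 2 it was 2, against 1.23% and 1.55%. Of the 10 genes, 3 were without overlap under length correction, under length correction with the replicate block (34.1% of all tested genes in both) and under length and GC correction (34.9%). With a library left out there were 6 to 9, where 59.9% to 77.1% of all tested genes did not overlap, since 1 library, assumed to vary like the others, stands against 2.

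Signs turned where differences were small. Length correction, alone and with the replicate block, put *Mtor* at 0.0236, *Smg1* at 0.0867, *Trrap* at 0.0053, *Topbp1* at 0.0192 and *Chek1* at 0.0142, and length and GC correction put *Smg1* at 0.0844, *Topbp1* at 0.0172 and *Chek1* at 0.0624. With each library left out in turn, *Smg1* ranged from -0.40 to 0.15, *Topbp1* from -0.28 to 0.19, *Chek1* from -0.27 to 0.25 and *Atrip* from -0.41 to 0.18. The cause was not tested. At 72 to 112 reads, depth limits *Atrip* most, and 2 libraries a genotype limit every gene.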
